A study of Homo sapiens with 4 samples.

Results

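The 10 cyclin genes CCNA2, CCNB1, CCNB2, CCNC, CCND1, CCND2, CCND3, CCNE1, CCNE2 and CCNF were followed in the hepatocellular carcinoma (HCC) cell lines Huh1 and Huh7, both established human lines, with and without knockdown of CDCA8. The genes were taken by symbol, as cyclins of the classes A to F, and they make up 10 of the 18398 transcripts with a value in each library. Total RNA was sequenced from Huh1 with NCsiRNA (the negative control siRNA), Huh1 with CDCA8siRNA, Huh7 with NCsiRNA and Huh7 with CDCA8siRNA, in 1 library per condition. Each siRNA was given at 15 nM for 48 h, by the study's methods, with a cationic lipid in all 4 conditions. Because no condition had a second library, the spread between cultures could not be measured.

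Cyclins are the regulatory subunits of the cyclin-dependent kinases, which have little activity without them. D cyclins bind CDK4 or CDK6 in G1 phase and open the way to phosphorylation of the retinoblastoma protein, E cyclins bind CDK2 at the start of DNA synthesis, the A cyclin acts with CDK2 and CDK1 in S and G2 phases, and B cyclins bind CDK1 to drive entry into mitosis. CCNF and CCNC stand apart, since cyclin F is the substrate receptor of an SCF ubiquitin ligase and cyclin C joins CDK8 or CDK19 in the Mediator complex that works with RNA polymerase II. The siRNA target, CDCA8 (borealin), is a subunit of the chromosomal passenger complex, which acts in mitosis.

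The values behaved as RPKM, that is, as read numbers scaled to the length of each transcript and to the depth of the library, and the libraries held between 12197606 and 13384836 reads on that scale. CDCA8 was at 24.1 RPKM in Huh1 with NCsiRNA, 5.86 in Huh1 with CDCA8siRNA, 51.5 in Huh7 with NCsiRNA and 7.36 in Huh7 with CDCA8siRNA. Its difference of log2(RPKM + 1) was the lowest of all genes compared in each line. All 15 hepatocyte and liver tumor markers were at 1 RPKM or more in every library. Their summed level was 2942 to 6853 RPKM, the highest in Huh1 with NCsiRNA and the lowest in Huh7 with CDCA8siRNA. In the limma fit described below, 11 of the 15 fell with CDCA8siRNA (adjusted p under 0.05) and 0 rose. Of all genes tested, 4.21% fell and 6.03% rose. The median log2 difference was -0.47 over the 15 markers and 0.03 over all genes tested. Among 13 markers of blood, endothelial, stromal and bile duct cells, 3 to 6 per library reached 1 RPKM (summed level 121 to 271 RPKM), and the part of other cells in the results was not tested. The highest of these were KRT7 in Huh1 (84.4 and 81.7 RPKM with NCsiRNA and CDCA8siRNA) and KRT19 (110 and 112) and COL1A1 (107 and 125) in Huh7, while the endothelial gene CDH5 was at 0 in all 4 libraries. Of the 3 that could be tested, LYZ rose with CDCA8siRNA by 0.77 on the log2 scale (adjusted p = 0.0129).

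The control libraries of the lines showed their own order of cyclins. CCNB1 was the most abundant member in all 4 libraries, at 77.5 RPKM in Huh1 with NCsiRNA, 65.9 in Huh1 with CDCA8siRNA, 157 in Huh7 with NCsiRNA and 138 in Huh7 with CDCA8siRNA. In Huh1 with NCsiRNA it was followed by CCNC (38.2) and CCND1 (37.9), then CCNB2 (31.8) and CCNA2 (30.5), then CCND3 (14.9) and CCNE2 (13.0), then CCNF (8.73) and CCNE1 (4.80 RPKM). The members within each of the first 3 of these pairs had overlapping 95% exact Poisson intervals, which were computed from the reads behind each value and cover counting error only. In Huh7 with NCsiRNA the order ran CCNB1, CCND1, CCNA2, CCNC and CCNB2, each separated from the next, and then CCNF (14.2), CCNE1 (14.0), CCND3 (12.5) and CCNE2 (12.0 RPKM), where every neighbour overlapped the next. RPKM is per length of transcript, so these levels can be compared between genes as far as the transcript lengths used by the authors hold.

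**Figure D1:**
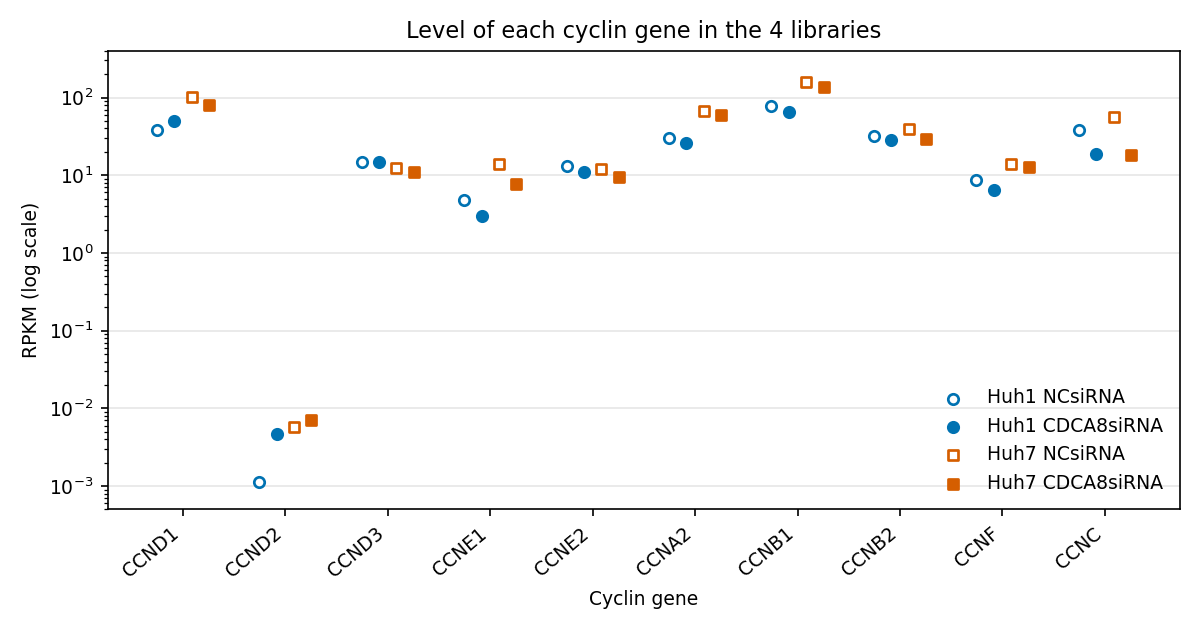
RPKM of each cyclin gene on a log axis, with 1 point per library and no error bars; circles are Huh1, squares are Huh7, open points are NCsiRNA and filled points CDCA8siRNA. CCNB1 is at the top in all 4 libraries, CCNC is lower with CDCA8siRNA in both lines, and CCND2 lies below the level of 3 reads.

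Knockdown was compared with control in 2 ways. Within a line, the difference of log2(RPKM + 1) was taken between 2 libraries, with no test. Across the lines, limma was fitted to all 4 libraries with the line as a covariate, which leaves 1 residual degree of freedom and asks whether a gene moved alike in Huh1 and Huh7; its adjusted p-values say nothing of the spread between cultures. Of the 10 members 9 could be tested, as CCND2 did not reach 1 RPKM. In the fit, 2 of the 9 fell with CDCA8siRNA (CCNC and CCNE1) and 0 rose, beside 4.21% of the 10357 genes tested that fell and 6.03% that rose. At an unadjusted p under 0.05 there were 7 of the 9 members, beside 26% of all genes. The median log2 difference was -0.26 over the 9 members and 0.03 over all genes tested. Lower values in both lines were found for 7 of the 9 members, beside 30.5% of all genes, and for 8 of the 9, beside 35.5% and 35.3% of all genes, after quantile or upper quartile scaling.

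**Figure D2:**
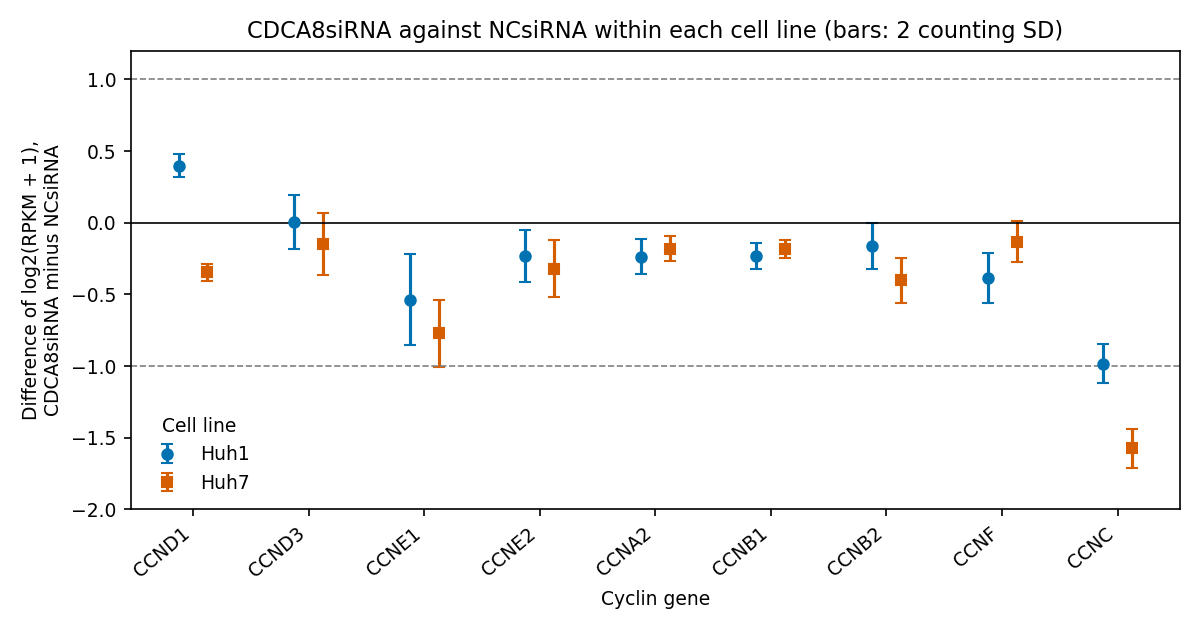
Difference of log2(RPKM + 1), CDCA8siRNA minus NCsiRNA, for the 9 cyclin genes that passed 1 RPKM; circles are Huh1, squares are Huh7, bars reach 2 counting SD to either side, with no variation between cultures, and dashed lines mark the 2-fold threshold. CCNC and CCNE1 lie lowest in both lines, and CCND1 lies above 0 in Huh1 (0.40) and below 0 in Huh7 (-0.35).

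CCNC, the Mediator cyclin, had the largest difference of the members in both lines. Its level was 38.2 RPKM in Huh1 with NCsiRNA, 18.9 in Huh1 with CDCA8siRNA, 56.8 in Huh7 with NCsiRNA and 18.4 in Huh7 with CDCA8siRNA. Both knockdown libraries were below both control libraries and close to each other, so that Huh7 stood at 1.49 times Huh1 with NCsiRNA and at 0.976 times with CDCA8siRNA. The log2 difference was -0.98 in Huh1 (counting SD 0.068) and -1.57 in Huh7 (counting SD 0.067), which left 49.3% and 32.4% of the control RPKM. In the limma fit CCNC fell by 1.28 on the log2 scale (SE 0.13, adjusted p = 0.00129) in 2 of 2 lines. Ranked from the lowest difference, it stood at place 21 of 10940 genes in Huh1 and place 13 of 11565 in Huh7, and 8 genes were lower than it in both lines at once.

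At the 2-fold threshold on log2(RPKM + 1), CCNC was the only member past it in Huh7, beside 0.7% of all genes, and no member was past it in Huh1, beside 0.174%. By the plain RPKM ratio CCNC was past it in both lines, beside 0.558% of genes in Huh1 and 1.46% in Huh7. CCNC lies on chromosome 6 from 99542380 to 99568973 on the minus strand with 12 exons (GRCh38, GENCODE 29). An antisense gene, AL137784.2, overlaps 478 bases of its transcript (19.3%), and whether the counting used strand is not given in the sources used here.

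The other parts of the Mediator kinase module did not pass the test: 0 of the 5 tested were called in either direction, and their median log2 difference was 0.05. CDK8, the kinase that cyclin C activates, was at 10.9 and 12.5 RPKM in Huh1 and at 9.45 and 12.1 in Huh7 with NCsiRNA and CDCA8siRNA, a log2 difference of 0.25 (SE 0.11, adjusted p = 0.176). Its paralog CDK19 had a log2 difference of 0.05 (adjusted p = 0.851), and MED12, which activates the kinase with cyclin C, of 0.32 (adjusted p = 0.123). MED13 and MED13L, which tether the module to Mediator, were both at 0.00. MED12L was not tested, with 0.0232 to 0.166 RPKM.

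CCNE1 and CCNE2 encode the partners of CDK2 at the G1/S boundary. CCNE1 was at 4.80 RPKM in Huh1 with NCsiRNA, 2.997 in Huh1 with CDCA8siRNA, 14.0 in Huh7 with NCsiRNA and 7.80 in Huh7 with CDCA8siRNA. Each knockdown library was below the control of its line, but both Huh7 libraries were above both Huh1 libraries. The log2 difference was -0.54 in Huh1 (counting SD 0.16) and -0.77 in Huh7 (counting SD 0.12), and CCNE1 fell by 0.65 in the limma fit (SE 0.12, adjusted p = 0.0125). CCNE1 lies on chromosome 19 from 29811898 to 29824308 on the plus strand with 12 exons (GRCh38, GENCODE 29). Its values rested on few reads, from about 80.8 in Huh1 with CDCA8siRNA to about 350 in Huh7 with NCsiRNA.

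CCNE2 was at 13.0 and 10.98 RPKM in Huh1 and at 12.0 and 9.39 in Huh7, with NCsiRNA and CDCA8siRNA. The range over the 4 libraries was narrow, and the log2 difference of -0.27 did not pass the test (SE 0.11, adjusted p = 0.137). Of its transcript, 1519 bases (55.8%) overlap exons of INTS8 on the opposite strand, so without strand the reads of CCNE2 and INTS8 cannot be told apart there. INTS8, an Integrator subunit, was at 28.4, 23.9, 29.4 and 20.4 RPKM in the same order, with a log2 difference of -0.37 (adjusted p = 0.0533). The sum of the E cyclins was 17.8 RPKM in Huh1 and 26.0 in Huh7 with NCsiRNA, against 14.0 and 17.2 with CDCA8siRNA. CCNE1 made up 26.9% of that sum in Huh1 and 54.0% in Huh7 with NCsiRNA, and 21.4% and 45.4% with CDCA8siRNA.

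Among the D cyclins, CCND1 had differences of opposite sign in the lines. It was at 37.9 RPKM in Huh1 with NCsiRNA, 50.3 in Huh1 with CDCA8siRNA, 101 in Huh7 with NCsiRNA and 79.2 in Huh7 with CDCA8siRNA. Both Huh7 libraries were above both Huh1 libraries, and the distance between the lines was smaller with CDCA8siRNA (1.58 times) than with NCsiRNA (2.67 times). The log2 difference was 0.40 in Huh1 (counting SD 0.040) and -0.35 in Huh7 (counting SD 0.029), both several times their counting SD. The 2 values were 0.74 apart on the log2 scale (counting SD of that difference 0.050), which could not be tested with 1 library per condition. Over both lines the log2 difference was 0.03 (SE 0.15, adjusted p = 0.930), and it was -0.00017 after upper quartile scaling. An opposite sign in the lines was found for 30.6% of all genes. CCND1 lies on chromosome 11 from 69641087 to 69654474 on the plus strand with 5 exons (GRCh38, GENCODE 29), and 11.5% of its transcript overlaps LTO1 on the opposite strand, a gene listed as ORAOV1 at 7.13 to 14.5 RPKM.

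CCND3 was at 14.9 and 14.97 RPKM in Huh1 and at 12.5 and 11.1 in Huh7, with NCsiRNA and CDCA8siRNA. Its log2 differences of 0.01 (counting SD 0.094) and -0.15 (counting SD 0.11) were both near counting error, and the sign in Huh1 turned below 0 after quantile or upper quartile scaling. CCND2 was at 0.00115, 0.00465, 0.00572 and 0.00708 RPKM, which is 0.0994 to 0.563 of a read. A count of 3 reads would have given 0.0346 to 0.0380 RPKM, so CCND2 was not detectable at this depth and no fold was taken. The summed level of the D cyclins was therefore mostly CCND1, at 71.8% and 77.1% in Huh1 and at 89.0% and 87.7% in Huh7, with NCsiRNA and CDCA8siRNA. The sum itself was 52.8 and 65.2 RPKM in Huh1 and 113 and 90.4 RPKM in Huh7.

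The A and B cyclins are genes of S phase to mitosis. Their promoters are known to carry the cell cycle genes homology region (CHR), a short element bound by the DREAM and MYB-MuvB complexes, with CCAAT boxes bound by NF-Y further upstream. The 100 bases before the RefSeq start (GRCh38.p14) are shown for the members with a CHR form there and for CCNC. CCNC, the member that fell most, had no CHR form in the 100 bases before either of its 2 RefSeq starts. Beyond the 100 bases of the start shown, TTTGAA began 182 and CCAAT 245 bases before it. The GENCODE start of CCNC (99568973) lies upstream of the start shown, and both matches fall within the 100 bases before it. The absence of a CHR form near the start of CCNC thus depends on the start used. Each sequence reads 5′ to 3′ on the strand of the gene and ends at the base before the start, and capitals mark a match on either strand to TTTGAA (the CHR), to the CHR variant CTTGAA or the CHR variant TTTAAA, or to the CCAAT box.
CCNA2 (chr4:121823884-121823983, minus strand): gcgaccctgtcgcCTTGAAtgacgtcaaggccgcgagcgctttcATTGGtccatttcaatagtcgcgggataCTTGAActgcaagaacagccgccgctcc
CCNB1 (chr5:69167050-69167149, plus strand): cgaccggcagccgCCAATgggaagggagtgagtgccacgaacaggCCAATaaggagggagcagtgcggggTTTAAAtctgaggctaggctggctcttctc
CCNB2 (chr15:59105046-59105145, plus strand): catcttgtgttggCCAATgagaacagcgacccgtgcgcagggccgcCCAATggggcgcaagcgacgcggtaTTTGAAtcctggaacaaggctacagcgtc
CCNF (chr16:2429347-2429446, plus strand): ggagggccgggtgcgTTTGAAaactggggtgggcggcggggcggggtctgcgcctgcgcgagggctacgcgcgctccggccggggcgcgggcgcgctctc
CCNE1 (chr19:29811891-29811990, plus strand): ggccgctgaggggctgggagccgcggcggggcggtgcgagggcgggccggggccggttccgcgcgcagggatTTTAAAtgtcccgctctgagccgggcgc
CCNC (chr6:99568815-99568914, minus strand): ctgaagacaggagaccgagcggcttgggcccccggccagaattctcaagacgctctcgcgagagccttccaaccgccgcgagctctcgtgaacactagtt

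Distances are given from the RefSeq start and would differ from the GENCODE start. In CCNA2, CCNB1 and CCNB2 the CHR form nearest the RefSeq start began 28, 30 and 29 bases before it. The nearest CCAAT began 56, 55 and 54 bases before it. The distances from the start were thus close in the 3 promoters, while the CHR form differed (CTTGAA in CCNA2, the TTTAAA form in CCNB1 and the unchanged TTTGAA in CCNB2) and the CCAAT of CCNA2 was on the opposite strand. The CHR form of CCNF lay further away, at 85 bases, and that of CCNE1 lay at 28 bases. Neither CCNF nor CCNE1 had CCAAT in the 100 bases shown. The nearest CCAAT of CCNF began 106 bases before the start, and CCNE1 had none up to 250 bases before it. Over the 35116 RefSeq promoter starts of the genome table, 11% held a CHR form in the same 100 bases and 2.08% held both a CHR form and CCAAT. The letters TTTCGCGC and TTTGGCGC, forms of the E2F motif, were in no member's window from 250 bases before to 50 after the start, and in 0.515% and 0.652% of all windows. The table held 7 of the 10 members with 10 starts. These are matches of letters and do not show binding.

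CCNA2 and CCNB1 differed little between knockdown and control. CCNA2 was at 30.5 RPKM in Huh1 with NCsiRNA, 25.7 in Huh1 with CDCA8siRNA, 66.9 in Huh7 with NCsiRNA and 59.0 in Huh7 with CDCA8siRNA. The log2 differences were -0.24 and -0.18 for CCNA2, and -0.23 and -0.18 for CCNB1, in Huh1 and Huh7. Each was several times its counting SD (0.032 to 0.061), but over both lines the difference of -0.21 for either gene did not pass the test (adjusted p = 0.179 for CCNA2 and 0.143 for CCNB1). CCNA2 shares 9.05% of its transcript with EXOSC9 on the opposite strand, a gene at 21.8 to 36.4 RPKM. In both CCNA2 and CCNB1 the separation was by line, with both Huh7 libraries above both Huh1 libraries.

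CCNB2, the Golgi-associated B cyclin, was at 31.8 and 28.3 RPKM in Huh1 and at 39.4 and 29.6 in Huh7, with NCsiRNA and CDCA8siRNA. The log2 difference was -0.16 in Huh1 (counting SD 0.079) and -0.40 in Huh7 (counting SD 0.078), and -0.28 over both lines (SE 0.10, adjusted p = 0.110). CCNF, which marks proteins such as CP110 for degradation, was at 8.73 and 6.45 RPKM in Huh1 and at 14.2 and 12.8 in Huh7. Its log2 difference was -0.39 in Huh1 (counting SD 0.087) and -0.13 in Huh7 (counting SD 0.072), and -0.26 over both lines (SE 0.11, adjusted p = 0.188). The summed level of CCNA2, CCNB1 and CCNB2 was 140 and 120 RPKM in Huh1 and 263 and 227 in Huh7, and CCNB1 made up between 54.9% and 61.0% of it in every library.

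**Figure D3:**
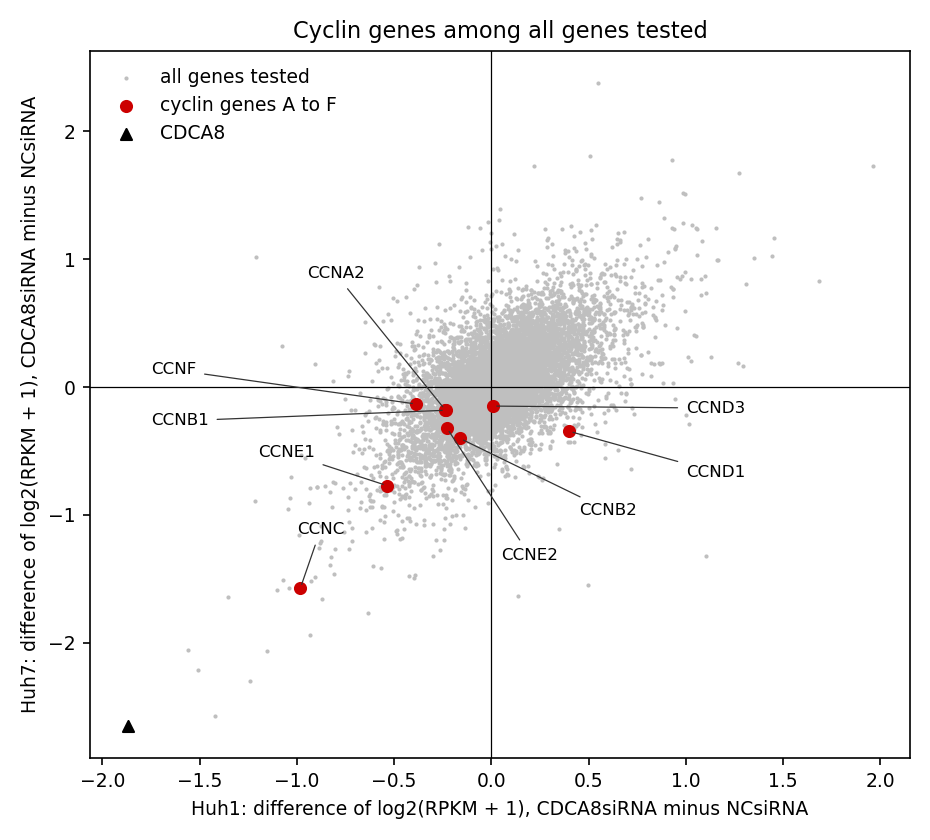
Difference of log2(RPKM + 1), CDCA8siRNA minus NCsiRNA, in Huh1 (x axis) and Huh7 (y axis) for all 10357 genes tested in grey, with 9 cyclin genes in red and CDCA8 as a triangle. CCNC (-0.98, -1.57) lies at the lower left edge of the cloud, CCNE1 (-0.54, -0.77) between it and the rest, and CCND1 (0.40, -0.35) in the lower right, while CCND3 sits at 0.01 on the x axis.

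Between the lines, most members tested differed. With the siRNA as covariate, limma found 5 of the 9 members tested higher in Huh7 (CCNA2, CCNB1, CCND1, CCNE1 and CCNF) and 1 lower (CCND3), beside 42.5% and 28.7% of the 12148 genes tested. The background was thus high, and these shares are not a result about cyclins. The Huh7 minus Huh1 log2 difference was 1.14 for CCNA2 (SE 0.089, adjusted p = 6.37e-06), 1.03 for CCNB1 (SE 0.080, adjusted p = 5.92e-06) and 1.26 for CCNE1 (SE 0.12, adjusted p = 2.15e-05). It was 1.02 for CCND1 (SE 0.15, adjusted p = 0.000355), 0.77 for CCNF (SE 0.11, adjusted p = 0.00033) and -0.32 for CCND3 (SE 0.11, adjusted p = 0.0237). CCNC (0.26), CCNB2 (0.18) and CCNE2 (-0.16) did not pass the test.

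The median Huh7 minus Huh1 difference of all genes was 0.14 and moved to -0.01 after quantile scaling, while that of the members was 0.77 without scaling. After quantile scaling the 5 members called higher, which were picked by that call, were at 0.64 (CCNF) to 1.08 (CCNA2). With NCsiRNA alone, CCNA2, CCNB1, CCND1 and CCNE1 were past 2-fold higher in Huh7 on log2(RPKM + 1), beside 17% of all genes, although CCNB1 (1.01) was at 0.996 after quantile and 0.905 after upper quartile scaling, which left 3 members. With NCsiRNA 0 members were past 2-fold lower, beside 10.2%. Added over all 10 members, the level was 257 RPKM in Huh1 and 474 in Huh7 with NCsiRNA, and 224 and 366 with CDCA8siRNA. The share of CCNC in that sum was 14.9% and 8.40% in Huh1 and 12.0% and 5.03% in Huh7, with NCsiRNA and CDCA8siRNA.

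Of the 7 partner kinases tested, 1 rose, 0 fell, and the median log2 difference was 0.05. Over all genes tested, 6.03% rose and 4.21% fell, with a median of 0.03, and these shares also stand beside the lists below. CDK6, a kinase of the D cyclins, was at 11.6 and 18.9 RPKM in Huh1 and at 8.85 and 16.9 in Huh7, with NCsiRNA and CDCA8siRNA, so both knockdown libraries were above both controls. It rose by 0.76 on the log2 scale (SE 0.11, adjusted p = 0.00452). CDK4, the other D cyclin kinase, had a log2 difference of 0.01 (adjusted p = 0.958) and CDK2 of 0.02 (adjusted p = 0.911). CDK1, the mitotic kinase, was at 31.2 and 27.3 RPKM in Huh1 and at 45.1 and 29.3 in Huh7, a log2 difference of -0.39 that missed the threshold (SE 0.11, adjusted p = 0.0603).

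Of the kinase inhibitors 7 were tested, 1 rose and 2 fell. CDKN2B, which encodes p15 and blocks CDK4 and CDK6, was at 8.81 and 19.0 RPKM in Huh1 and at 5.02 and 13.5 in Huh7, and it rose by 1.15 (SE 0.11, adjusted p = 0.0012). CDKN2A, which encodes p16 and p14ARF, fell by 0.48 (SE 0.11, adjusted p = 0.0318), and CDKN3, a phosphatase that acts on the kinases, fell by 0.45 (SE 0.086, adjusted p = 0.0143). CDKN1A, which encodes p21, had a log2 difference of -0.65 in Huh1 and 0.51 in Huh7 and did not pass the test over both lines (adjusted p = 0.870). For CDKN1B, which encodes p27, the log2 difference was -0.21 (adjusted p = 0.226).

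A list of 21 further genes held the rest of the cyclin family and also CCNB1IP1 and CCNDBP1, which bind cyclins but are not cyclins. Of its genes 15 were tested, 3 fell and 1 rose, with a median log2 difference of 0.05. CCNK, the partner of CDK12 and CDK13 in transcription, fell by 0.57 (SE 0.10, adjusted p = 0.0129) and CCNJ fell by 0.41 (adjusted p = 0.0384). CCNB1IP1, a ubiquitin ligase named after its values were seen, fell by 0.40 (adjusted p = 0.0277). CCNJL rose by 0.60 (SE 0.11, adjusted p = 0.0111). Among the regulators of cyclin transcription (E2F, pocket protein, MYB, FOXM1 and NF-Y genes), 1 of 24 fell and 0 rose. It was E2F8, an E2F that represses its targets, which fell by 0.52 (SE 0.12, adjusted p = 0.0243).

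A list of 28 genes held parts of the ubiquitin ligases that degrade cyclins, and also genes that act with these ligases or inhibit them. Of the 28, 5 fell and 0 rose, with a median of -0.10, beside 4.21% of all genes tested that fell and 6.03% that rose. FBXO5, an inhibitor of the anaphase-promoting complex, fell by 0.58 (SE 0.11, adjusted p = 0.0136), and SKP2, a substrate receptor of SCF ligases, fell by 0.44 (SE 0.10, adjusted p = 0.0273). The other 3, named after their values were seen, were CKS1B, CKS2 and UBE2C, which fell by 0.32, 0.29 and 0.31 on the log2 scale. FBXW7, the receptor for cyclin E, had a log2 difference of 0.28 that did not pass the test (adjusted p = 0.169).

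Lists of genes with peak expression at G1/S and at G2/M are set beside the members of the same phases. Over all genes tested, 4.21% fell and 6.03% rose, with a median of 0.03. The share of all genes below 0 over both lines was not counted. Within the lines, 44.9% of all genes compared were lower in Huh1 and 45.5% in Huh7. Of 30 G1/S genes 6 fell and 0 rose, 29 had a log2 difference below 0, and the median was -0.18. SLBP, which binds histone mRNA, fell by 1.05 (adjusted p = 0.00129) and PCNA, the sliding clamp of DNA polymerases, by 0.99 (adjusted p = 0.00785). Of 31 G2/M genes 5 fell and 1 rose, 24 were below 0, and the median was -0.16. NUSAP1, a spindle protein, fell by 1.29 (adjusted p = 0.00087) and PLK1, a mitotic kinase, by 0.55 (adjusted p = 0.00938), followed by TOP2A, AURKB and UBE2C, which were named after their values were seen. BIRC5, which encodes survivin, a partner of borealin, rose by 0.48 (adjusted p = 0.045). UBE2C and CDC20 stand in both the ligase and the G2/M list, and CDK8 and CDK19 in both the partner kinase and the Mediator list. The counts and medians of these lists are thus not independent.

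**Figure D4:**
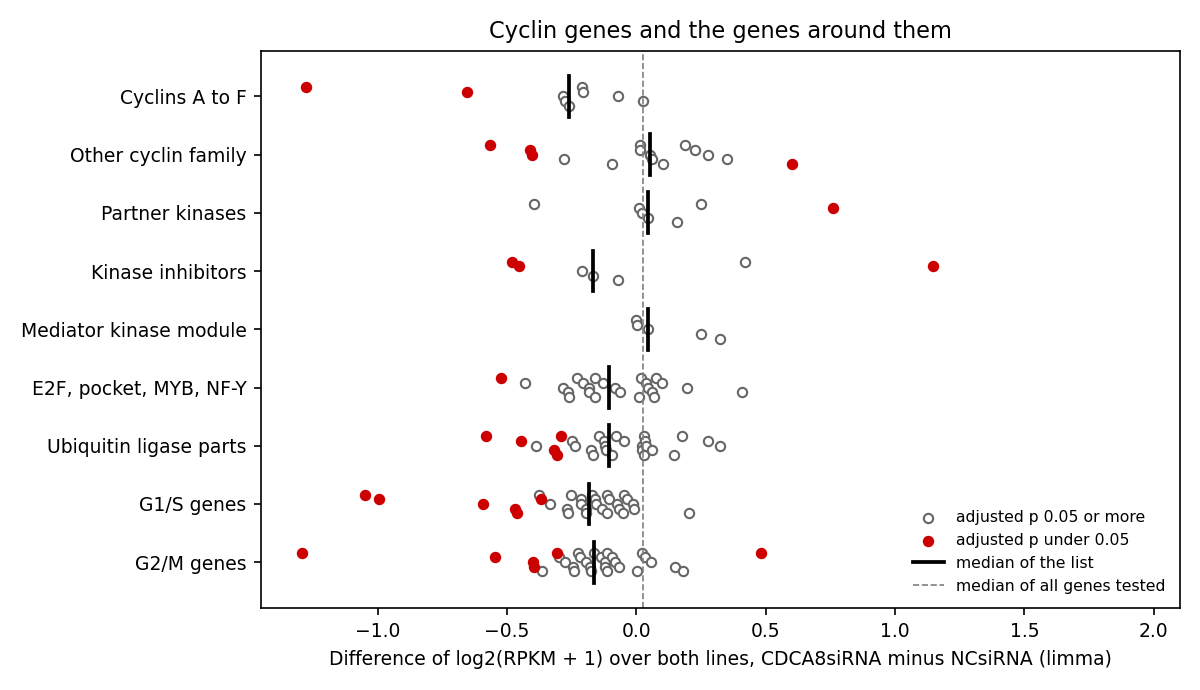
Difference of log2(RPKM + 1) over both lines from limma, 1 point per gene, for the cyclins A to F and 8 lists of genes around them; filled points have an adjusted p under 0.05, black bars are list medians and the dashed line is the median of all genes tested (0.03). The cyclin median (-0.26) lies below that line, and 2 of its 9 points are filled.

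The genes with the most similar levels over the 4 libraries were ranked for CCNB1 and CCNE1, after each gene was centred on its mean of log2(RPKM + 1). Nearest to CCNB1 were ARFGAP3, STEAP3 and KPNA2, with a root mean square distance of 0.012, 0.016 and 0.029 on the log2 scale. KPNA2, an importin, was at 193 and 164 RPKM in Huh1 and at 404 and 336 in Huh7, with NCsiRNA and CDCA8siRNA. Nearest to CCNE1 were SCML2, PLK1 and ID2, at 0.045, 0.058 and 0.087. In both patterns the step between the lines was larger than that between the siRNAs, with log2 differences of 1.03 and -0.21 for CCNB1 and of 1.26 and -0.65 for CCNE1.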

How the data were processed

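The authors deposited 1 RPKM value per RefSeq transcript and library without naming the unit, which was inferred from the values. Libraries were made from total RNA with the Illumina TruSeq RNA kit. The submitters' processing notes name CASAVA 1.8.2, TopHat2 2.0.9 and hg19; the counting tool, its annotation and its use of strand are not given in the sources used here. GENCODE 29 (GRCh38) lengths turned RPKM into reads for counting errors only. Where the authors used other lengths, these errors are off. Differences were taken on log2(RPKM + 1), which understates the change of low genes. limma 3.58.1 in R 4.3.3 (lmFit, eBayes with trend, Benjamini-Hochberg over all genes) tested the siRNA over genes reaching 1 RPKM in some library of each line, and the line over genes reaching it in any of the 4 libraries. The limma fit of the siRNA was tried on simulated reads with known changes, and the outcome is not given here. Promoter sequences are from RefSeq (GRCh38.p14).

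The members and all lists were chosen with earlier results of these data known. Named genes were the members, CDCA8, the partner kinases, the kinase inhibitors, the Mediator kinase module, up to 2 lowest and 2 highest called genes of each other list, and the 3 genes nearest to CCNB1 and to CCNE1. Outside this rule, FBXW7, CDC20, CCNDBP1, KRT7, KRT19, COL1A1, CDH5 and the genes that overlap members were also named. So were the genes marked above as named after their values were seen. Alternatives were another pseudocount, other filters, quantile and upper quartile scaling, limma without the covariate or the trend, and limma with robust eBayes. The plain ratio was added after seeing the data. Python 3.11.15 with numpy 2.4.6 and pandas 2.3.3 was used for the rest.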

Additional observations from a re-analysis of the deposited data

Results flagged for a closer look

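CCND1 had a log2 difference between CDCA8siRNA and NCsiRNA of 0.40 in Huh1 and of -0.35 in Huh7, opposite directions under the same contrast (Huh7 minus Huh1, -0.74). CCND3 had 0.01 in Huh1 and -0.15 in Huh7 (Huh7 minus Huh1, -0.16), and its opposite sign was lost under quantile and upper quartile scaling. Neither difference between the lines was tested, as there was 1 library per condition, and 30.6% of all genes had opposite signs.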

How the results depend on the processing

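The libraries were paired by line through the covariate of the limma fit, and the labels carry no replicate numbers for another block. Leaving out any library would leave the limma fit, which has 1 residual degree of freedom, with none. Depth limited CCND2, and the few reads of CCNE1 in Huh1 give it the widest counting error of the members tested.

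Without a filter on low values, limma called 0 genes lower and 0 higher with CDCA8siRNA (2050 had an unadjusted p under 0.05) and so 0 members, against 436, 625 and 2. Without the line covariate it also called 0 lower, 0 higher and 0 members, with 89 genes at an unadjusted p under 0.05. The genes lower were 750 with quantile scaling, 709 with upper quartile scaling and 267 without the trend. With a minimum of 5 RPKM, 1 member was lower (CCNC), as CCNE1 was not tested. CCNC was called in 7 of 9 alternatives (adjusted p from 1.2e-09 to 1) and CCNE1 in 6 of 8 (0.000253 to 1). Between the lines, genes lower in Huh7 were 3492 and 2119 without a filter, and genes higher 5162 and 3314. The 1 member lower in Huh7 became 0 without a filter, 0 without the covariate, 2 with quantile and 2 with upper quartile scaling, where CCNE2 joined CCND3, and the 5 higher became 3 without a filter. Past 2-fold in Huh1, 19 genes lower became 57 with a pseudocount of 0.1 and 61 by the plain ratio, and 35 higher became 107 and 131, or 22 with quantile scaling. The 0 members lower in Huh1 became 1 (CCNC) under each of a pseudocount of 0.1, quantile scaling, upper quartile scaling and the plain ratio. In Huh7, 81 lower became 153 and 169, and 101 higher became 269 and 291, with a pseudocount of 0.1 and by the plain ratio. CCND1 turned from 0.03 to -0.000168 over both lines with upper quartile scaling (adjusted p from 0.894 to 1 over its alternatives). The cause of these moves was not tested. Of the tested single values, 141 of 152 kept their direction and side of the threshold. Part of this was fixed in advance. Other filters, limma without the covariate or the trend, and robust eBayes leave the log2 difference of a gene unchanged. Its direction could therefore change only with another pseudocount or scaling. Of the untested single values, 196 of 215 were counted as the same and 19 as moved. Part of this was also fixed in advance, as the other filters leave these values unchanged. A change of sign near 0 could count as the same, as for CCND3 in Huh1 (0.01, and -0.03 and -0.02 after quantile and upper quartile scaling).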
